A study of Mus musculus with 6 samples.

Results

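Fibroblast growth factor 10 (FGF10) and dibenzazepine (DBZ) were added together to the medium of dental epithelial organoids (DEOs), and the RNA of these organoids (+NFD) was compared with that of organoids grown without either agent (+N). Each medium was represented by 1 library. All genes of the deposited table entered the comparison. The values of 47493 entries were summed over 47360 gene symbols, and 13358 symbols were kept, those that reached 1 FPKM in +N or in +NFD. FPKM is the number of sequenced fragments per kilobase of transcript, scaled to the depth of the library. The comparison is given as log2((FPKM in +NFD + 1)/(FPKM in +N + 1)), called the log2 ratio, which understates the change of genes at low FPKM. With 1 library per medium there is no replicate check and no p-value, and a gene was counted as higher or lower when its ratio reached 2-fold.

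Both libraries came from organoids grown for 14 days in Matrigel from adult stem cells of the dental epithelium (aDESCs), which were primary epithelial cells of the apical incisor bud of wild-type female C57BL/6J mice of 9 weeks of age. Both media contained 50% Wnt3a-conditioned medium, 5% R-spondin1-conditioned medium, EGF at 100 µg per ml, Noggin at 200 µg per ml, N-acetylcysteine at 1 mM and Y27632, a kinase inhibitor, at 10 µM. The +NFD medium also contained FGF10 at 100 µg per ml and DBZ at 10 µM. The study gives the DBZ concentration in mM in its methods text and in µM in its list of media. Organoids with DBZ alone (+ND) or FGF10 alone (+NF), again 1 library each, are set beside the pair for the genes described, and the 3 media share the +N library as their reference. Where 4 FPKM values follow each other without labels, they stand in the order +N, +ND, +NF and +NFD. How many mice or wells gave each library was not given in the sources used here.

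FGF10 is secreted by the mesenchyme around the cervical loop of the growing incisor and acts on the epithelium through FGF receptors, mainly the epithelial form of Fgfr2, and the ERK kinases. DBZ inhibits gamma-secretase, the protease that frees the intracellular domain of Notch receptors and that cuts other membrane proteins as well. In the incisor, progenitors of the cervical loop give rise to ameloblasts, which secrete amelogenin, ameloblastin and enamelin as the matrix of enamel, and to the stratum intermedium. Stratified keratinocytes of skin and oral mucosa instead end in cornification, in which loricrin, small proline-rich proteins and late cornified envelope (LCE) proteins are cross-linked under the plasma membrane.

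The depth implied by the smallest steps between low FPKM values was 27700000 fragments in +N and 29700000 in +NFD, an estimate from 8334 genes with 1 annotated transcript. As a check of the label, all 19 epithelial markers passed the filter. Of these, 0 were 2-fold higher and 6 lower in +NFD, or 31.6%, beside 4.03% of all genes, and 16 had a log2 ratio below 0. Krt14 and Krt5, keratins of basal cells, were at 12652 FPKM in +N and 6089.8 in +NFD and at 6582 FPKM in +N and 6177 in +NFD. BC037156, annotated as a lincRNA of 430 nt at chr5:87908779-87914171 (GRCm38), was the most abundant entry of every library at 38852 FPKM in +NFD and 116578 in +N (+ND 34772, +NF 83486). Its part of all fragments was 5.01% in +N and 1.67% in +NFD. The median log2 ratio of the genes kept was 0.18, so that most genes were listed slightly higher in +NFD, and ratios relative to this median are called centred below.

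Most genes differed little between the 2 libraries. At least 2-fold higher in +NFD were 782 genes, 5.85% of those that passed, and at least 2-fold lower were 538 genes, 4.03%. After centring, 540 genes were higher and 714 lower, so the split between higher and lower depended on the scaling. The ratio was within 2-fold for 12038 genes, or 90.1%. At least 4-fold higher were 150 genes and at least 4-fold lower were 156, and at 16-fold these numbers were 36 and 38. The median FPKM in the higher library was 7.89 for the higher genes and 16.6 for the lower ones. The summed FPKM of the lower genes was 199901 in +N, or 26.7% of the sum over all genes, and 65305 in +NFD. The summed FPKM of the higher genes was 14810.5 in +N and 44289 in +NFD. In the plot of all genes, the Lce1 and Lce3 genes lay above and the interferon-stimulated genes below the diagonal.

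**Figure D1:**
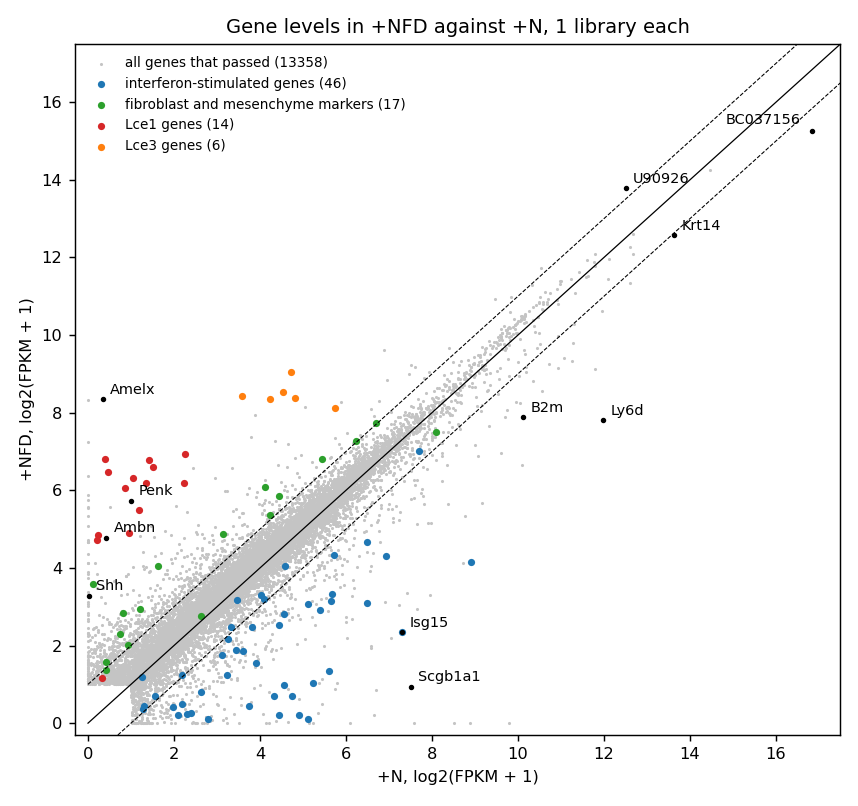
Level of each of the 13358 genes in +N (horizontal axis) and +NFD (vertical axis), both as log2(FPKM + 1) with 1 library per medium. The solid line marks equal levels and the dashed lines a 2-fold ratio; 782 genes lie on or above the upper dashed line and 538 on or below the lower one, and coloured points are the members of 4 gene lists.

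Among protein-coding genes that reached 5 FPKM in +N or +NFD and have a transcript of 300 nt or longer, the largest ratio was that of Amelx, which encodes amelogenin, the main protein of the enamel matrix. Amelx was at 323 FPKM in +NFD and 0.269 in +N (+ND 0.272, +NF 0.12). Only the combined medium held it above 1 FPKM, and its log2 ratio was 8.0. In +N its value rested on about 6.3 fragments, and the FPKM ratio was 1203 with a 95% counting interval of 576 to 3418, which covers counting error only. Ambn, which encodes ameloblastin, was the other enamel matrix gene among the 20 largest ratios, at 26.4 FPKM in +NFD and 0.34 in +N (+ND 0.139, +NF 0.117), a log2 ratio of 4.36. Of the other 18 genes, 14 belong to the Lce1 and Lce3 groups. Stfa2, which encodes a stefin, a cysteine protease inhibitor, was at 46.3 FPKM in +NFD and 0.422 in +N (+ND 494, +NF 0), and Rptn, which encodes repetin of the cornified envelope, was at 244 FPKM in +NFD and 13.8 in +N (+ND 681, +NF 1.09). For both, +ND was above +NFD and +NF was the lowest of the 4 libraries. Penk, which encodes the precursor of enkephalins, was at 52 FPKM in +NFD and 1.01 in +N (+ND 1.78, +NF 13.1), and 1500009L16Rik was at 94.4 FPKM in +NFD and 4.45 in +N (+ND 31.3, +NF 56.9). These 2 genes were higher in +NF than in +ND and highest in +NFD.

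The lowest ratio was that of Scgb1a1, which encodes a secretoglobin of secretory epithelia and was at 0.918 FPKM in +NFD and 181 in +N (+ND 0.721, +NF 51.8), a log2 ratio of -6.57. Nat8l, which encodes the enzyme that makes N-acetylaspartate, was at 0.151 FPKM in +NFD and 99.8 in +N (+ND 0.712, +NF 25.6). Both libraries with DBZ were near 0, and +NF lay between them and +N. The same order held for Gabrp, a subunit of GABA-A receptors, at 0.208 FPKM in +NFD and 40.0 in +N (+ND 0.973, +NF 8.48), and for Il33, an alarmin cytokine, at 2.85 FPKM in +NFD and 94.3 in +N (+ND 8.45, +NF 41.4). Other products of secretory or defence epithelium among the 20 lowest ratios were Wfdc18 at 103, 0, 13 and 0.823 FPKM in the order +N, +ND, +NF and +NFD, Ltf, which encodes lactotransferrin, at 246, 5.45, 199 and 8.9 FPKM, Sftpd, which encodes surfactant protein D, at 24.1, 0, 19.4 and 0.0194 FPKM, and Crisp1 at 131, 3.07, 61.2 and 3.6 FPKM. For Sftpd the value in +NFD was worth about 1 fragment. Alox15, a lipoxygenase, was at 19.7, 0.217, 6.06 and 0.0384 FPKM and Mgll, which encodes monoglyceride lipase, at 40.5, 1.82, 17.8 and 1.05 FPKM. Krt10, a keratin of suprabasal skin cells, differed from these in being lowest in +NF, at 94.1, 32.8, 1.25 and 2.93 FPKM. Ifi44, Isg15, Ifi27l2a and Ifit1 among the same 20 genes belong to the interferon response, which has a list of its own.

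**Figure D2:**
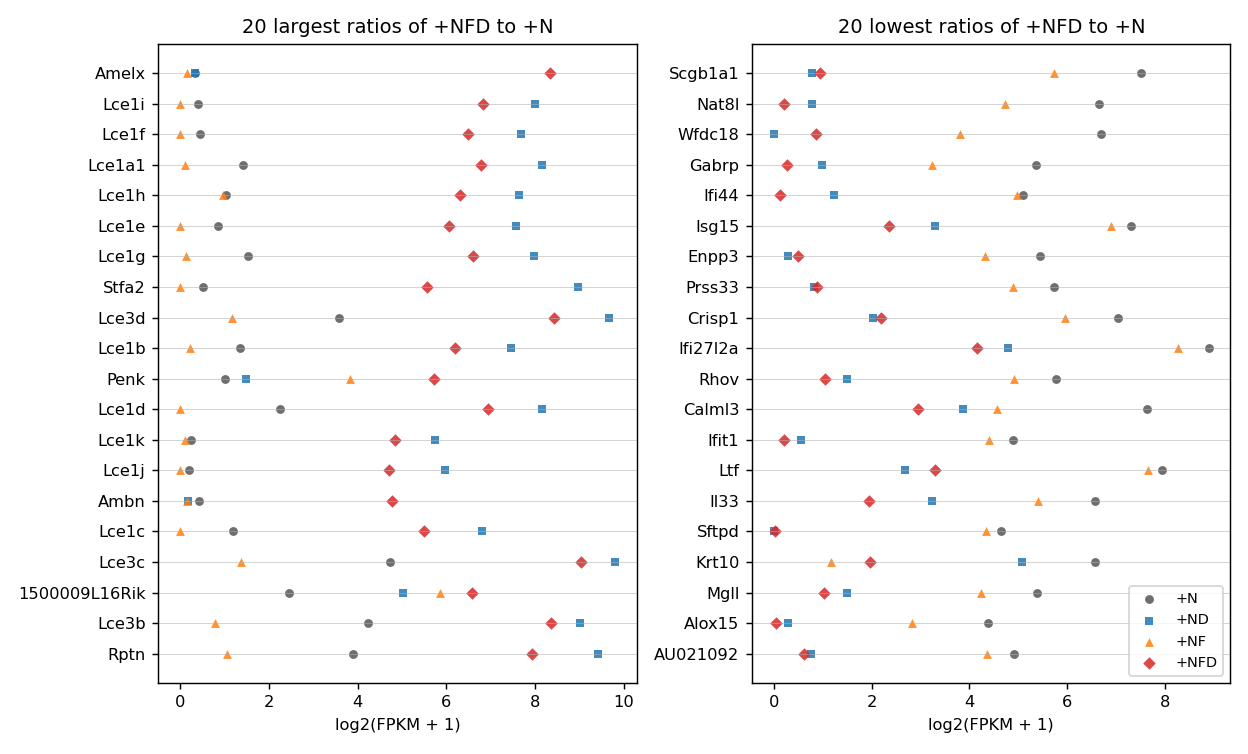
Levels in the 4 media, as log2(FPKM + 1) with 1 library per medium, of the 20 protein-coding genes with the largest (left) and the 20 with the lowest (right) log2 ratio of +NFD to +N. On the left, +ND (squares) lies to the right of +NFD (diamonds) for every Lce gene, while Amelx, Ambn, Penk and 1500009L16Rik are highest in +NFD. On the right, +NFD lies to the left of +N by the choice of the genes. Both +ND and +NF also lie to the left of +N there for all 20 genes.

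Notch target genes were few at a measurable level. Of 21 Notch target genes, 10 passed the filter, 0 were higher and 2 were lower, with a median log2 ratio of -0.53. Nrarp, a feedback inhibitor of Notch that is a target itself, was at 2.6 FPKM in +NFD and 18.2 in +N (+ND 2.8, +NF 9.12), a log2 ratio of -2.41. Hes1, a repressor that is a classical target, was at 80.1 FPKM in +NFD and 157 in +N (+ND 74.6, +NF 109), a log2 ratio of -0.96 that became -1.14 after centring. Both genes were lowest in the 2 libraries with DBZ. Dtx3l, the other member that was 2-fold lower, is also in the interferon list. Hes5 was listed at 0 in all 4 libraries, and Hey1, Hey2 and Heyl stayed under the filter. Myc, which encodes a growth regulator under many inputs, was at 51.3, 68.7, 62.2 and 72.9 FPKM in the order +N, +ND, +NF and +NFD.

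Among 22 genes for Notch receptors, ligands and their processing that passed, 4 were higher and 1 was lower. Jag1, a ligand, was at 21.5 FPKM in +NFD and 66.4 in +N (+ND 14, +NF 44.4), a log2 ratio of -1.58, whereas the ligand gene Dll1 was at 20.5 FPKM in +NFD and 8.1 in +N (+ND 15.4, +NF 18.2), a log2 ratio of 1.24. Lfng, which encodes a glycosyltransferase that modifies Notch receptors, was at 9.33, 11.7, 20.9 and 23.1 FPKM. The noncanonical ligand genes Dlk1 and Dlk2 were at 0.845, 1.4, 7.34 and 12.7 FPKM and 1.94, 7.92, 1.72 and 9.75 FPKM, with log2 ratios of 2.90 and 1.87. The receptor genes Notch3 and Notch2 were below 2-fold, at log2 ratios of -0.99 and -0.80, and Notch1 was at -0.11. Ligand genes lay on both sides of 0, and the 3 receptor genes named here were below it.

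Of the ERK feedback and target list, 23 genes passed, of which 8 were higher and 0 lower, with a median log2 ratio of 0.57. These were Spry1, Spry2, Spry4 and Spred3, inhibitors that restrain receptor tyrosine kinase signalling, Dusp6, an ERK phosphatase, the transcription factor genes Etv4 and Etv5, and Hmga2. Spry1 was at 21.7 FPKM in +NFD and 4.77 in +N (+ND 5.44, +NF 17.9), a log2 ratio of 1.98. Dusp6 was at 176 FPKM in +NFD and 64.1 in +N (+ND 88.4, +NF 226), a log2 ratio of 1.44. Etv5 was at 16.9 FPKM in +NFD and 4.38 in +N (+ND 10.5, +NF 15.5), a log2 ratio of 1.73. For Spry1 and Dusp6, both libraries with FGF10 were above both without it. Summed over the whole list, FPKM was 1091 in +NFD and 887 in +N (+ND 1229, +NF 1151) and was highest with DBZ alone. Hmga2, a chromatin protein of undifferentiated cells, was instead highest in +ND, at 5.11, 43.9, 19.8 and 17.9 FPKM. Members below 0 included Ccnd1, which encodes cyclin D1, at 188, 113, 233 and 121 FPKM, and Dusp4 at 54.5, 33.4, 48.1 and 33.6 FPKM. After centring, 6 of the 23 were 2-fold higher.

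Among 15 genes for FGF ligands, receptors and partners that passed, 3 were higher and 1 was lower. These were 20% and 6.67%, beside 5.85% and 4.03% of all genes. Fgfr1 was at 75.6 FPKM in +NFD and 16.5 in +N (+ND 35.6, +NF 69.3), a log2 ratio of 2.13, and Fgfr2, whose epithelial form binds FGF10, was at 50.8 FPKM in +NFD and 28.2 in +N (+ND 82.8, +NF 24.2), a log2 ratio of 0.83. The 2 receptor genes differed in order, since Fgfr1 was highest in the libraries with FGF10 and Fgfr2 in those with DBZ. Fgf9, a signal of the dental epithelium, was listed at 0 in +N, where 3 fragments correspond to 0.0302 FPKM, and was at 2.56 FPKM in +NFD. Fgf1 was at 10.0, 0.631, 8.7 and 1.15 FPKM in the order +N, +ND, +NF and +NFD. Of 14 genes of the EGF receptor family and its ligands, 1 was higher and 3 were lower, or 7.14% and 21.4%. In this list 8 genes were above 0, and the median was 0.22, beside 0.18 for all genes. The ligand genes Areg, Hbegf and Btc were lower, at log2 ratios of -1.64, -1.27 and -1.01, and the ligand gene Epgn was higher at 1.67.

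The enamel list lay on both sides of 0. Of 23 genes of enamel matrix and ameloblasts in the table, 18 passed, 5 were higher and 6 were lower, and the median log2 ratio was -0.05. Besides Amelx and Ambn, the higher genes were Enam, which encodes enamelin, Calb1, a calcium-binding protein of ameloblasts, and Vwde. Enam was listed at 0 in +N, +ND and +NF, where 3 fragments correspond to at most 0.0246 FPKM, and was at 1.97 FPKM in +NFD, about 321 fragments. Calb1 was at 2.29 FPKM in +NFD and 0.0351 in +N (+ND 0.0105, +NF 0.00843), and Vwde was at 4.5 FPKM in +NFD and 0.00549 in +N (+ND 0.00693, +NF 0.583). All 5 were highest in the combined medium. Mmp20, the protease of the secretory stage, did not pass, but was listed at 0 in the other 3 libraries and at 0.194 FPKM in +NFD, about 19 fragments, where 3 fragments correspond to 0.0308 FPKM. For Klk4, the protease of enamel maturation, both +N and +NFD were listed at 0.

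The 6 lower members included genes of maturation-stage ameloblasts. Odam, which encodes a protein of maturation ameloblasts and junctional epithelium, was at 2602 FPKM in +NFD and 6221 in +N (+ND 2824, +NF 5441), a log2 ratio of -1.26. Amtn, which encodes amelotin, was at 1.13 FPKM in +NFD and 7.01 in +N (+ND 1.65, +NF 1.24), and Wdr72, which is needed for enamel maturation, was at 0.69 FPKM in +NFD and 3.86 in +N (+ND 0.063, +NF 2.36). Both were highest in +N. Fam20c, which encodes the kinase that phosphorylates secreted matrix proteins, was at 109, 32.7, 58.5 and 40.2 FPKM, Slc13a5 at 2.93, 0.418, 1.3 and 0.657 FPKM and Lama3, a laminin subunit, at 132, 66.9, 147 and 63.7 FPKM.

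The promoter of Amelx is shown because this gene had the largest ratio. The sequence is the 250 bases before the RefSeq start in GRCm38.p6, chrX:169187210-169187459, minus strand, with the TATA box letters TATAAA in capitals. They begin 31 bases before the start.
Amelx: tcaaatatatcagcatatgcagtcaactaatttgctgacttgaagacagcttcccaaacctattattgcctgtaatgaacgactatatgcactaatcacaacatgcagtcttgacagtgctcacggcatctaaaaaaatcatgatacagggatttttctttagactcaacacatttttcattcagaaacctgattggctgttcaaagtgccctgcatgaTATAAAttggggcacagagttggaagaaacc

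Signals of the dental placode and enamel knot, the centres that direct tooth shape, were on the higher side where they reached 2-fold. Of 18 that passed, 6 were higher and 0 lower, with a median of 0.18, and after centring 6 were higher and 1 lower. Shh, the Hedgehog ligand of the dental epithelium, was at 0.016 FPKM in +N, about 1.3 fragments, was listed at 0 in +ND, and was at 0.679 FPKM in +NF and 8.74 FPKM in +NFD. Its log2 ratio was 3.26, and the FPKM ratio had a 95% counting interval from 123 to 27248. Sostdc1, a secreted inhibitor of BMP and Wnt signals in tooth germs, was at 62.7 FPKM in +NFD and 8.33 in +N (+ND 42.1, +NF 43), a log2 ratio of 2.77. Bmp4 was at 15.9 FPKM in +NFD and 5.04 in +N (+ND 11.3, +NF 13.3) and Wnt6 at 5.07 FPKM in +NFD and 1.18 in +N (+ND 2.97, +NF 1.53). Each of these 4 genes was highest in +NFD, whereas Bmp2 was highest in +N, at 106, 98.5, 62.6 and 57.3 FPKM.

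The Hedgehog pathway list had 17 genes that passed, 7 higher and 0 lower, with a median log2 ratio of 0.63. Gli1, a transcription factor that is also the standard readout of the pathway, was at 5.86 FPKM in +NFD and 0.188 in +N (+ND 0.865, +NF 4.61), a log2 ratio of 2.53. Ptch1, the main receptor, was at 4.78, 4.83, 7.04 and 8.59 FPKM and did not reach 2-fold. Gli1 and Ptch1 shared an order in which +NFD was the highest and +NF the next. Disp1, which releases the ligand, and Scube3 were at log2 ratios of 1.16 and 1.39. Foxf2 and Foxd1, also 2-fold higher, are forkhead genes known from mesenchyme and were at 1.36, 3.41, 0.668 and 4.11 FPKM and 0.0463, 0.561, 0.0479 and 1.81 FPKM. Gas1, a co-receptor, was the lowest member at 28.6, 30.9, 13.8 and 16.9 FPKM. After centring, 5 of the 17 were 2-fold higher.

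Of 35 transcription factor genes of the dental epithelium that passed, 12 were higher and 3 lower, with a median of 0.49. Msx2 and Dlx3, homeobox genes of tooth and hair development, were at 38.4 FPKM in +NFD and 10.3 in +N (+ND 30.0, +NF 16.1) and at 20.4 FPKM in +NFD and 8.95 in +N (+ND 14.9, +NF 6.03). Sp7, which encodes osterix, was at 8.54 FPKM in +NFD and 1.63 in +N (+ND 1.97, +NF 1.6), a log2 ratio of 1.86. Tbx1, which is needed for incisor epithelium, was at 32.8 FPKM in +NFD and 12 in +N (+ND 12.1, +NF 24.1), a log2 ratio of 1.38. Msx1, Dlx2, Dlx4, Dlx5, Dlx6, Satb1 and Foxi3 were also among the 2-fold higher genes. The 3 lower genes were Nkx2-3, Barx2 and Sox2. Sox2, a marker of incisor stem cells, was at 5.83 FPKM in +NFD and 14.2 in +N (+ND 12.3, +NF 8.21), a log2 ratio of -1.15. Sox2 was lowest in +NFD, and after centring 7 of the 35 were 2-fold higher and 3 lower. The list does not separate epithelial from mesenchymal expression, and the part of mesenchymal cells in these values was not tested.

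Both media held the same Wnt3a and R-spondin1. Of 31 genes used as readouts of Wnt signalling that passed, 8 were higher and 0 lower, and after centring 6 were higher and 1 lower. Apcdd1, a feedback inhibitor at the membrane, was at 15.5 FPKM in +NFD and 1.41 in +N (+ND 7.82, +NF 1.9), a log2 ratio of 2.78. Tnfrsf19 was at 13.4 FPKM in +NFD and 2.45 in +N (+ND 7.87, +NF 22.8) and Tcf7, which encodes a transcription factor of the pathway, at 14.1 FPKM in +NFD and 3.89 in +N (+ND 6.66, +NF 17.3). Lgr5 and Lgr6 encode R-spondin receptors and lay on opposite sides, with Lgr5 at 0.0307, 0, 2.07 and 1.1 FPKM and Lgr6 at 52, 19.2, 40.0 and 27.9 FPKM. Axin2, the most used readout, was level at 12.1, 13.2, 11.6 and 13.9 FPKM in the order +N, +ND, +NF and +NFD. Notum, which inactivates Wnt ligands, was just under 2-fold at 40.5, 41.3, 48.5 and 81 FPKM. Among 11 Wnt ligand genes that passed, Wnt11 was lower at 45.4, 7.71, 34.4 and 13.1 FPKM, and Wnt6, Wnt3a and Wnt7a were 2-fold higher, of which 1 stayed so after centring.

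Of all lists, that of the cornified envelope had the most higher genes. Of 61 cornified envelope genes, 56 passed, 34 were higher and 8 lower, with a median log2 ratio of 2.07, beside 5.85% and 4.03% of all genes. The Lce1, Lce3 and Sprr genes were set apart after their values were seen. All 14 Lce1 genes passed, 13 were 2-fold higher and the median was 4.75. The summed FPKM of the Lce1 genes was 941 in +NFD and 17.9 in +N (+ND 2293, +NF 1.83). All 6 Lce3 genes were higher, and their sum was 2173 FPKM in +NFD and 156 in +N (+ND 4632, +NF 9.99). Both groups were highest in +ND and lowest in +NF, with +NFD below +ND and far above +N. LCE genes are close copies of one another, so their fragments may have been divided among them.

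The Sprr genes, which encode small proline-rich proteins of the envelope, lay on both sides of 0. Of 14 that passed, 4 were higher and 4 lower. Sprr2b, Sprr2e, Sprr2f and Sprr2g were higher, at log2 ratios of 3.97, 3.34, 1.51 and 2.02. Sprr2a3 and Sprr2k were the lowest, at 10.9 FPKM in +NFD and 60.7 in +N (+ND 75, +NF 3.32) and at 7.91 FPKM in +NFD and 36.1 in +N (+ND 27.7, +NF 2.01). The abundant Sprr1a and Sprr3 were below 2-fold, at log2 ratios of -0.76 and -0.87, and Sprr2d was level at 1421 FPKM in +N and 1408 in +NFD. Lor, which encodes loricrin, the most abundant envelope protein of skin, was at 164 FPKM in +NFD and 12.7 in +N (+ND 219.6, +NF 13.4), a log2 ratio of 3.58. Flg, which encodes the filament-binding protein filaggrin, was at 23.3 FPKM in +NFD and 8.36 in +N (+ND 58.1, +NF 1.28). Ivl, which encodes involucrin, an early scaffold protein, was lower at 4.33, 5.56, 2.48 and 1.6 FPKM, and so was Scel, which encodes sciellin, at 16.5, 16.1, 9.76 and 5.91 FPKM. Lor and Flg were above +N in +NFD, whereas Ivl and Scel were below it, and the plakin genes Evpl and Ppl were at log2 ratios of -0.97 and -0.91.

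Genes of late epidermal differentiation were more often 2-fold higher than lower. Of 24 genes for corneodesmosomes and desquamation proteases, 8 were higher and 2 lower. These were 33.3% and 8.33%, beside 5.85% and 4.03% of all genes. Klk7, a kallikrein that cuts corneodesmosomes, was at 32.9 FPKM in +NFD and 1.75 in +N (+ND 84.6, +NF 0.0775), a log2 ratio of 3.63. Klk6 and Klk10 were at 0.511, 22.7, 0.165 and 11.8 FPKM and 30.2, 286, 3.32 and 119 FPKM in the order +N, +ND, +NF and +NFD. Serpinb3a, a protease inhibitor, was lower at 15.8, 3.03, 0.607 and 0.17 FPKM. Of 29 genes for the lipid barrier of skin, 8 were higher and 2 lower, or 27.6% and 6.9%. Alox12b and Aloxe3 encode the lipoxygenases that prepare ceramides for the barrier, and their log2 ratios were 2.50 and 2.11. Smpd3, a sphingomyelinase, was at 2.11. Sptlc3, a subunit of the enzyme that starts sphingolipid synthesis, was lower at 10.8, 0.398, 3.04 and 0.394 FPKM, and Far2, which makes wax alcohols, at 5.65, 0.293, 0.771 and 0.118 FPKM. For the higher genes named here +ND was the highest library, and for Sptlc3 and Far2 +N was.

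The promoters of Lor and Rptn are shown as examples from this group. Both are the 250 bases before the RefSeq start in GRCm38.p6, Lor at chr3:92083143-92083392 on the minus strand and Rptn at chr3:93393449-93393698 on the plus strand. Capitals mark the AP-1 letters TGANTCA, the site of Jun and Fos proteins, which read the same on both strands.
Lor: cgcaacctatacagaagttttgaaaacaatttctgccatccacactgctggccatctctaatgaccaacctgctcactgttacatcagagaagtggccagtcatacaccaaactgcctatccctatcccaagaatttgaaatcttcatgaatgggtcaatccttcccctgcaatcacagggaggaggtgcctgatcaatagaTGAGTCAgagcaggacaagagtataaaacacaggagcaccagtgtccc
Rptn: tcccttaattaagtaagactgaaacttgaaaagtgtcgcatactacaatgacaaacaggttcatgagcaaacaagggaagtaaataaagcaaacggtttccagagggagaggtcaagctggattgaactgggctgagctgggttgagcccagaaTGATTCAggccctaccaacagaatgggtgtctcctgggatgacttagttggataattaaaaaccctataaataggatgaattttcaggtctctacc
In the window from 250 bases before to 50 after the start, 18 of the 49 cornified envelope genes with a sequence held these letters, or 36.7%, beside 8.97% of all promoters in the table. The TATA box letters were in 40.8% of the same genes and in 15.7% of all promoters. A match is a description of the sequence and not a site in use.

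Keratins, which form the filaments of epithelial cells, were more often 2-fold lower than higher. Of 8 suprabasal epidermal and mucosal keratins that passed, 1 was higher and 3 lower, with 4 on each side of 0 and a median of -0.03. Of 8 basal, stress and companion keratins, 1 was higher and 4 lower. Of 6 keratins of simple epithelium, 0 were higher and 4 lower, with a median log2 ratio of -1.41. Krt8, a keratin of simple epithelium, was at 5.95 FPKM in +NFD and 22.8 in +N (+ND 0.574, +NF 86), and Krt19 was at 2.09 FPKM in +NFD and 10.6 in +N (+ND 1.03, +NF 6.95). Krt18, the partner of Krt8, was below 2-fold at 76.7, 9.9, 241 and 63.2 FPKM. For Krt8 and Krt18 +NF was the highest library and +ND the lowest. Krt6a and Krt6b, keratins of activated epithelium, were at 3943 FPKM in +N and 1584 in +NFD and at 2462 FPKM in +N and 648 in +NFD, whereas Krt16 and Krt17 were at log2 ratios of -0.15 and 0.51. Krt75, a companion-layer and enamel keratin, was higher at 0.548, 9.47, 0.849 and 3.76 FPKM in the order +N, +ND, +NF and +NFD.

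Junction genes lay on both sides of 0. Of 25 genes for tight and gap junctions, 3 were higher and 8 lower, and the median was -0.65. Cldn4, Cldn7 and Cldn3, claudins that seal tight junctions, were at 99.5 FPKM in +NFD and 326 in +N (+ND 98.5, +NF 176), at 53.2 FPKM in +N and 12.1 in +NFD and at 13.7 FPKM in +N and 1.75 in +NFD. Gja1, which encodes connexin 43 of gap junctions, was at 237 FPKM in +NFD and 824 in +N (+ND 368, +NF 416), a log2 ratio of -1.79. The libraries with DBZ held the lowest values of Cldn4 and Gja1. Cldn10, a claudin of the stratum intermedium, went the other way, from 0.157 FPKM in +N to 11.6 in +NF and 10.2 in +NFD, and was listed at 0 in +ND. Of 22 genes of desmosomes and adherens junctions, 4 were higher and 2 lower, 14 were below 0, and the median was -0.29. Among cadherins, Cdh1 (E-cadherin) was at 163 FPKM in +N and 74.7 in +NFD, a log2 ratio of -1.12, while Cdh11, Cdh13 and Cdh2 were higher at log2 ratios of 2.29, 1.72 and 1.37. Cdh11 and Cdh2 are known from mesenchyme and nerve. Of 30 genes of hemidesmosomes, laminins and integrins, 6 were higher and 3 lower, with a median of 0.30. Itgb4, the hemidesmosome integrin, was at 581 FPKM in +NFD and 195 in +N (+ND 234, +NF 402), a log2 ratio of 1.57.

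The list with the most lower genes was the interferon response. Type I and III interferons act through transcription factors, among them Stat2 and Irf9, that bind the interferon-stimulated response element (ISRE), and the induced proteins restrict viruses. Of 53 interferon-stimulated genes in the table, 46 passed, 0 were higher and 35 lower, beside 4.03% of all genes, and all 46 had a ratio below 0, with a median of -1.90. Isg15, a ubiquitin-like protein, was at 4.09 FPKM in +NFD and 157 in +N (+ND 8.87, +NF 118), a log2 ratio of -4.95. Ifit1, which binds foreign RNA, was at 0.16 FPKM in +NFD and 28.8 in +N (+ND 0.478, +NF 20.0), a log2 ratio of -4.68. Oas1a, a sensor of double-stranded RNA, was at 0.97 FPKM in +NFD and 22.7 in +N (+ND 3.88, +NF 22.4). In these 3 genes +NF was closer to +N than to either library with DBZ, and +NFD was the lowest. The summed FPKM of the list was 337 in +NFD and 1843 in +N (+ND 389, +NF 1713).

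The genes of the response's own regulators were lower too. Irf7, the amplifier of the response, was at 7.61 FPKM in +NFD and 88.9 in +N (+ND 9.71, +NF 75.8), a log2 ratio of -3.38. Irf9 was at 49.6, 15.9, 43.3 and 7.91 FPKM and Stat2 at 22.6, 6.91, 19.1 and 6.02 FPKM in the order +N, +ND, +NF and +NFD. Each was lower in both libraries with DBZ than in both without it. Members nearest to 0 were Isg20 at -0.28 and Ifi47 at -0.06, and Irf1 was at -0.73. Rsad2 and Mx1 did not reach the filter in either library, at 0.642 FPKM in +N and 0.0442 in +NFD and 0.278 FPKM in +N and 0.0697 in +NFD.

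The promoters of 4 members are shown because this list had the most genes that were 2-fold lower. Each is the 250 bases before the RefSeq start in GRCm38.p6, Isg15 at chr4:156200819-156201068 on the minus strand, Ifit1 at chr19:34640639-34640888 and Ifit3 at chr19:34583279-34583528 on the plus strand, and Oas1a at chr5:120907526-120907775 on the minus strand. Capitals mark the ISRE letters, which are GAAA, any 2 bases and GAAA again, or TTTC in the same way where the element lies on the other strand. In Isg15 and Oas1a the matches overlap each other.
Isg15: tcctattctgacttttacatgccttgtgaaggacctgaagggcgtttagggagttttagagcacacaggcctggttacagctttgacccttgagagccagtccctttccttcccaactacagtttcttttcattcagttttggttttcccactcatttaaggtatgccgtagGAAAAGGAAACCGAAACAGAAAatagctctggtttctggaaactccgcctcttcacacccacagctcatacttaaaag
Ifit1: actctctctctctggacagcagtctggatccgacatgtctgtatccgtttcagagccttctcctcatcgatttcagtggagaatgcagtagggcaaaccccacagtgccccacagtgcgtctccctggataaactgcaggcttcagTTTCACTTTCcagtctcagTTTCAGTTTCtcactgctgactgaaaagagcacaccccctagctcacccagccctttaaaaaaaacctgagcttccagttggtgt
Ifit3: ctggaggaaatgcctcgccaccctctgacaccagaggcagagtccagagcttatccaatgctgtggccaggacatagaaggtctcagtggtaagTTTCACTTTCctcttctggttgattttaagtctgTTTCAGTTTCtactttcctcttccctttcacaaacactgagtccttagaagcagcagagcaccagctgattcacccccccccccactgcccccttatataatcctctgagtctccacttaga
Oas1a: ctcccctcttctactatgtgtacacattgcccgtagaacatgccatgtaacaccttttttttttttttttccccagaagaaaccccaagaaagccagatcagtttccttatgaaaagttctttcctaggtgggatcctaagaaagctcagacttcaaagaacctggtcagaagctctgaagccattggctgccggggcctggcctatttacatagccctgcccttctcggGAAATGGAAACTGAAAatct
Of the interferon-stimulated genes that passed, 35 of 46 had a promoter in the table, and 18 of these held the ISRE letters between 250 bases before and 50 after the start, beside 3.99% of all promoters. Since under 80% of the list had a sequence, no share of the list is given.

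Antigen presentation was lower as well. Of 24 genes of the major histocompatibility complex (MHC) and antigen processing that passed, 0 were higher and 10 lower, with a median of -0.88. B2m, the light chain of class I molecules, was at 236 FPKM in +NFD and 1112 in +N (+ND 311, +NF 1125), a log2 ratio of -2.23. The class I heavy chain genes H2-K1 and H2-D1 were at 512, 119.6, 398 and 143 FPKM and 641, 157, 558 and 199 FPKM. For B2m and both heavy chain genes, +NF was closer to +N than to the libraries with DBZ. The class II genes H2-Eb1 and H2-DMb1 were at log2 ratios of 0.45 and 0.43. H2-Ab1, also of class II, was at -1.10. The summed FPKM of macrophage and leukocyte markers, cells that present antigen, was also lower, at 597 in +NFD and 1166 in +N, and its part in the interferon and MHC results was not tested. Much of this difference was in S100a9, at 333 FPKM in +N and 49.3 in +NFD, and in Lyz2, at 528 and 288 FPKM. S100a9 and Lyz2 are not specific to these cells. Aif1 was lower, at 48.7, 10.9, 42.7 and 22.4 FPKM in the order +N, +ND, +NF and +NFD. C1qa, C1qb and C1qc of macrophages were at log2 ratios of -0.41, -0.12 and -0.23. Of the 16 markers that passed, 11 were below 0, and the median was -0.17.

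Of 23 secretory and mucosal defence genes that passed, 1 was higher and 9 lower, with a median of -0.87. Besides Scgb1a1, Wfdc18, Ltf and Sftpd, the beta-defensin genes Defb3, Defb14 and Defb1 were lower, with Defb3 at 50.0 FPKM in +NFD and 570.4 in +N (+ND 52, +NF 297). Bpifb4 was the higher member at 4.71, 1.7, 122 and 29.4 FPKM, with its highest value in +NF. Among 30 cytokine and chemokine genes, 3 were higher and 7 lower. Il33, Csf3, Csf2 and Ccl20 were lower at log2 ratios of -4.63, -2.84, -2.68 and -2.38. Ppbp, which encodes the precursor of neutrophil-attracting peptides, was at 557 FPKM in +NFD and 3556 in +N (+ND 717, +NF 2617), a log2 ratio of -2.67. Its neighbours on chromosome 5, Pf4 (chosen after its values were seen) and Cxcl5, were at 92.9, 11.8, 56.3 and 14.1 FPKM and 1955, 361, 1390.1 and 567 FPKM. All 3 were lowest in the libraries with DBZ. Il1f5, an interleukin 36 receptor antagonist, was higher at 42.4 FPKM in +NFD and 3.9 in +N (+ND 107, +NF 2.26), a log2 ratio of 3.15.

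Of 28 S100, stefin and serpin genes, 3 were higher and 11 lower. S100a9, a subunit of calprotectin, was at 49.3 FPKM in +NFD and 333 in +N (+ND 141, +NF 129), and S100a14 was at 451 FPKM in +NFD and 1310.1 in +N (+ND 641, +NF 678). Ly6d, a surface marker of differentiating epithelium, had the largest loss in FPKM after Krt14 among protein-coding genes, from 4046 FPKM in +N to 439 in +ND, 1362 in +NF and 224 in +NFD. Ly6c1 of the same family was higher, at 117, 798, 787 and 781 FPKM. Ly6a was just under 2-fold higher, at 1279.9, 1774, 3310.1 and 2514 FPKM, a log2 ratio of 0.97. Ly6d was highest in +N, whereas Ly6a and Ly6c1 were lowest in +N.

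Part of the collagen and other matrix genes were higher, as were markers of fibroblasts. Of 26 collagen genes that passed, 11 were higher and 1 lower, with a median of 0.90, and after centring 7 were higher. Col6a1 and Col6a2, chains of the microfibril collagen VI, were at 20.4 FPKM in +NFD and 1.44 in +N (+ND 5.17, +NF 2.49) and at 15.1 FPKM in +NFD and 1.05 in +N (+ND 3.13, +NF 1.43). Col3a1 was at 56.7 FPKM in +NFD and 20.8 in +N (+ND 12.3, +NF 6.81) and Col1a2 at 111 FPKM in +NFD and 42.6 in +N (+ND 42.1, +NF 27.9). These were highest in +NFD, and for Col3a1 and Col1a2 the +NF value was the lowest. Of 50 matrix glycoproteins and proteoglycans, 17 were higher and 5 lower, and after centring 11 were higher. Summed over these glycoproteins, FPKM was lower, at 3040 in +NFD and 4281 in +N (+ND 2026, +NF 3914). Bgn (biglycan) was at 26.9, 58.4, 21.5 and 114 FPKM and Mfap2, of elastic microfibrils, at 1.05, 1.65, 1.37 and 9.85 FPKM, while Tnc (tenascin C), Has2 (a hyaluronan synthase) and Ecm1 were lower at log2 ratios of -1.81, -2.21 and -1.48. Has3, another hyaluronan synthase, was higher at 1.7, 60.1, 2.51 and 14.1 FPKM. Mmp2, a gelatinase made mainly by mesenchyme, was at 65.9 FPKM in +NFD and 12.3 in +N (+ND 25.8, +NF 10.9), a log2 ratio of 2.33.

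Of 17 fibroblast and mesenchyme markers that passed, of 21 in the table, 14 were higher and 0 lower, with a median of 1.37, and after centring 9 were higher. The summed FPKM of the list was 906 in +NFD and 565 in +N (+ND 554, +NF 311). Vim (vimentin) was at 67.5 FPKM in +NFD and 16.3 in +N (+ND 23, +NF 11.3). Prrx1, a transcription factor of craniofacial mesenchyme, was at 15.6 FPKM in +NFD and 2.08 in +N (+ND 8.46, +NF 2.23), and Thy1, a surface marker of fibroblasts, was at 11.1 FPKM in +NFD and 0.0769 in +N (+ND 1.04, +NF 0.325), about 3.7 fragments in +N. Dcn (decorin) was level at 5.15, 4.84, 3.7 and 5.82 FPKM, Dpt was listed at 0 in +N and was at 0.0862 FPKM in +NFD, Pi16 was listed at 0 in +NFD and Aspn in all 4 libraries. Vim, Prrx1 and Thy1 were highest in +NFD. Of 7 myofibroblast and smooth muscle markers that passed, 2 were higher and 0 lower, 4 were below 0, the median was -0.20, and the summed FPKM of the list was 449 in +NFD and 557 in +N (+ND 448, +NF 495). The fibroblast and collagen lists share 4 genes, and without them 7 of the 22 other collagen genes were higher and 1 lower, with a median of 0.66. The part of fibroblasts or mesenchymal cells in the matrix results was not tested, and in RNA from whole organoids more cells of a type and more RNA per cell cannot be told apart.

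Other cell types were read from their markers. Of 27 macrophage and leukocyte markers, 16 passed, 0 were higher and 2 lower, S100a9 and Aif1, with a median of -0.17. The complement genes C1qa, C1qb and C1qc of macrophages were at 52, 43.3, 34.9 and 38.9 FPKM, 44.5, 43.3, 31.4 and 41 FPKM and 45.2, 38.2, 30.5 and 38.4 FPKM in the order +N, +ND, +NF and +NFD, and their values overlapped across the media with and without DBZ. The lymphocyte genes Cd3e, Cd3d and Ms4a1 were listed at 0 in all 4 libraries. Of 15 endothelial markers 2 passed and 0 reached 2-fold, and of those under it Pecam1 was at 0.134 FPKM in +N and 0.0375 in +NFD and Cldn5 was listed at 0 in both. Of 4 neural, glial and melanocyte markers that passed, 1 was higher and 0 lower, and the higher one was Gap43, a growth-cone protein of neurons, at 7.56 FPKM in +NFD and 0.305 in +N (+ND 7.25, +NF 1.16). Of 26 HOX genes, which are silent in most of the head, 0 passed.

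Mineralization genes were likewise on the higher side where they reached 2-fold. Of 13 that passed, 6 were higher and 0 lower, with a median of 0.99. Dmp1, a phosphoprotein of dentin and bone, was at 28 FPKM in +NFD and 6.37 in +N (+ND 9.27, +NF 7.56), a log2 ratio of 1.98. Alpl, which encodes tissue-nonspecific alkaline phosphatase and is also a marker of the stratum intermedium, was at 11 FPKM in +NFD and 3.98 in +N (+ND 2.38, +NF 2.41), and Phospho1, a phosphatase that supplies phosphate for mineral, was at 9.94 FPKM in +NFD and 3.08 in +N (+ND 8.77, +NF 5.31). Ank, which encodes a pyrophosphate transporter that limits mineral, was at 16, 21, 39.3 and 50.3 FPKM. The list counts Col1a1 among its higher members, which is also a fibroblast marker, and the part of the fibroblast markers in these values was not tested. Dspp, the marker of odontoblasts, was at 0 in +N, +ND and +NF and at 0.0162 FPKM in +NFD, under the 0.0228 FPKM that 3 fragments correspond to.

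Markers of the cell layers of the incisor bud lay on both sides of 0. Of 9 stratum intermedium markers that passed, 2 were higher, Alpl and Cldn10, and 3 were lower, Jag1, Gja1 and Krt15. Of 20 markers of incisor progenitors and their niche, 2 were higher, Gli1 and Lgr5, and 4 were lower, Sox2, Krt14, Krt15 and Igfbp2. Igfbp2, which binds insulin-like growth factors, was at 148 FPKM in +NFD and 298 in +N (+ND 301, +NF 277), a log2 ratio of -1.01. Sox9, a transcription factor that the list of epithelial-to-mesenchymal regulators holds, was at 2.81 FPKM in +NFD and 21.4 in +N (+ND 1.45, +NF 21.6), a log2 ratio of -2.56. Igfbp2 was low in +NFD only, whereas Sox9 was low in both libraries with DBZ. In the same list of regulators, 7 of 18 were higher, among them Snai1, Twist1 and Twist2, repressors of the epithelial state, with Snai1 at 0.454, 1.06, 0.497 and 4.92 FPKM in the order +N, +ND, +NF and +NFD. This list shares Vim, Prrx1, Twist1 and Twist2 with the fibroblast markers, and without these 4 genes 3 of 14 were higher and 1 lower, with a median of 0.19, beside 0.18 for all genes.

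Genes of DNA replication and mitosis had small ratios in 1 direction. All 48 replication genes that passed had a ratio above 0, 10 were 2-fold higher, and the median was 0.85. All 52 mitosis genes were above 0, 3 were 2-fold higher, and the median was 0.73. After centring, 48 of 48 and 50 of 52 were still above 0, but 1 and 0 reached 2-fold. Rrm2, which makes deoxynucleotides, was at 64.8 FPKM in +NFD and 27 in +N (+ND 51.1, +NF 62), a log2 ratio of 1.23. Top2a, which encodes topoisomerase II alpha, was at 60.9 FPKM in +NFD and 29.3 in +N (+ND 60.0, +NF 66.7), and Cdk1, the kinase that drives mitosis, at 134 FPKM in +NFD and 70.1 in +N (+ND 125, +NF 146). The +N library held the lowest value of all 3 genes, and +NFD was no higher than +NF for Top2a and Cdk1. Ccnd2, which encodes cyclin D2, was at 315 FPKM in +NFD and 109 in +N (+ND 158, +NF 283), a log2 ratio of 1.53, opposite in direction to Ccnd1. The 58 ribosomal protein genes were all above 0, with a median of 0.33 and 0 at 2-fold, 56 of them above 0 after centring, and the 51 genes of oxidative phosphorylation had a median of 0.24, close to that of all genes.

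The promoters of Top2a and Cdk1 are shown as 2 examples with the cell cycle genes homology region (CHR), letters TTTGAA on either strand, through which the DREAM complex represses mitotic genes in resting cells. They are the 250 bases before the RefSeq start in GRCm38.p6, chr11:99024190-99024439 and chr10:69352913-69353162, both on the minus strand, with the letters in capitals.
Top2a: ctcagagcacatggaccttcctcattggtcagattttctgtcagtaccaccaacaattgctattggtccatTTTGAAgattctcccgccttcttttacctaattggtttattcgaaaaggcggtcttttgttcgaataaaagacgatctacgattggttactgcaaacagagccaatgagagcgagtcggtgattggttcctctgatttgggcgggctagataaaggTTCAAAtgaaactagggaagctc
Cdk1: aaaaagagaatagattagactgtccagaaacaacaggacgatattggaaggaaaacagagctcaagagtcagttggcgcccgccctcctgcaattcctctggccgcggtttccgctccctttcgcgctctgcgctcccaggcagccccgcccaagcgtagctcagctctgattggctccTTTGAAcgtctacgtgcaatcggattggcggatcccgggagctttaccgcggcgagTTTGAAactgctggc
Of the mitosis genes, 43 of 52 had a sequence and 33 of these, 76.7%, held the letters between 250 bases before and 50 after the start. The share was 15.4% of 39 replication genes and 20.2% of all promoters.

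Among the metabolic lists, the amino acid response had the largest share of 2-fold higher genes. Of 23 genes of the amino acid response, which the transcription factor Atf4 drives when amino acids or folding capacity run short, 11 were higher and 0 lower, with a median of 0.87, and after centring 9 were higher. Asns, which makes asparagine, was at 63.1 FPKM in +NFD and 22.5 in +N (+ND 76.7, +NF 26), Phgdh, the first enzyme of serine synthesis, at 47.8 FPKM in +NFD and 15.6 in +N (+ND 54.1, +NF 28.6), and Trib3, a feedback pseudokinase, at 13.5 FPKM in +NFD and 3.39 in +N (+ND 7.54, +NF 3.47). For Asns and Phgdh both libraries with DBZ were above both without it. Fads1, Fads2 and Fads3, which desaturate fatty acids and lie side by side on chromosome 19, were at log2 ratios of 2.81, 2.24 and 2.11, and Fads1 was at 62.4 FPKM in +NFD and 8.07 in +N (+ND 21.2, +NF 44.9). Fabp4 and Fabp5, fatty acid carriers, were lower at 149, 30.5, 2.38 and 7.24 FPKM and 2155, 2942, 547 and 675 FPKM in the order +N, +ND, +NF and +NFD. Fads1 was highest, and Fabp4 and Fabp5 were low, in the libraries with FGF10.

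Of 35 antioxidant genes that passed, 8 were higher and 3 lower, and after centring 5 and 3. The metallothionein genes Mt1 and Mt2, whose products bind metals, and Fth1, the heavy chain of ferritin, were among the largest gains in FPKM, with Mt2 at 1953 FPKM in +NFD and 701 in +N (+ND 1763, +NF 588) and Fth1 at 3379 FPKM in +NFD and 1489.9 in +N (+ND 3604, +NF 1105). Gclm, which encodes a subunit of the enzyme for glutathione synthesis, was at 602 FPKM in +NFD and 181 in +N (+ND 478, +NF 419), while Gclc, its catalytic partner, was at a log2 ratio of -0.81. Prdx6, a peroxiredoxin, was lower at 124 FPKM in +NFD and 783 in +N (+ND 135, +NF 351). The gene with the largest gain in FPKM over all was U90926, annotated as protein-coding, at 14156 FPKM in +NFD and 5803 in +N (+ND 7279, +NF 7829), a log2 ratio of 1.29. It was highest in +NFD.

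Several further signalling and stress lists are given by their counts, beside 5.85% higher and 4.03% lower of all genes. Of 38 genes of the BMP and TGF-beta pathway that passed, 4 were higher and 0 lower, among them the ligand gene Bmp3 at 0.791, 2.84, 6.36 and 4.37 FPKM and the inhibitor gene Grem1 at 2.87, 3.49, 2.42 and 8.15 FPKM in the order +N, +ND, +NF and +NFD. YAP and TEAD targets gave 1 higher and 1 lower of 18, and AP-1 and immediate early genes 1 and 1 of 21. Of 24 sterol synthesis genes 3 were higher and 1 lower, of 31 genes of the unfolded protein response 4 and 0, of 24 p53 targets 2 and 0, of 36 glycolysis and hypoxia genes 1 and 0, and of 15 heat shock genes 0 and 0. Of 12 housekeeping genes 0 were higher and 1 was lower, which was B2m.

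**Figure D3:**
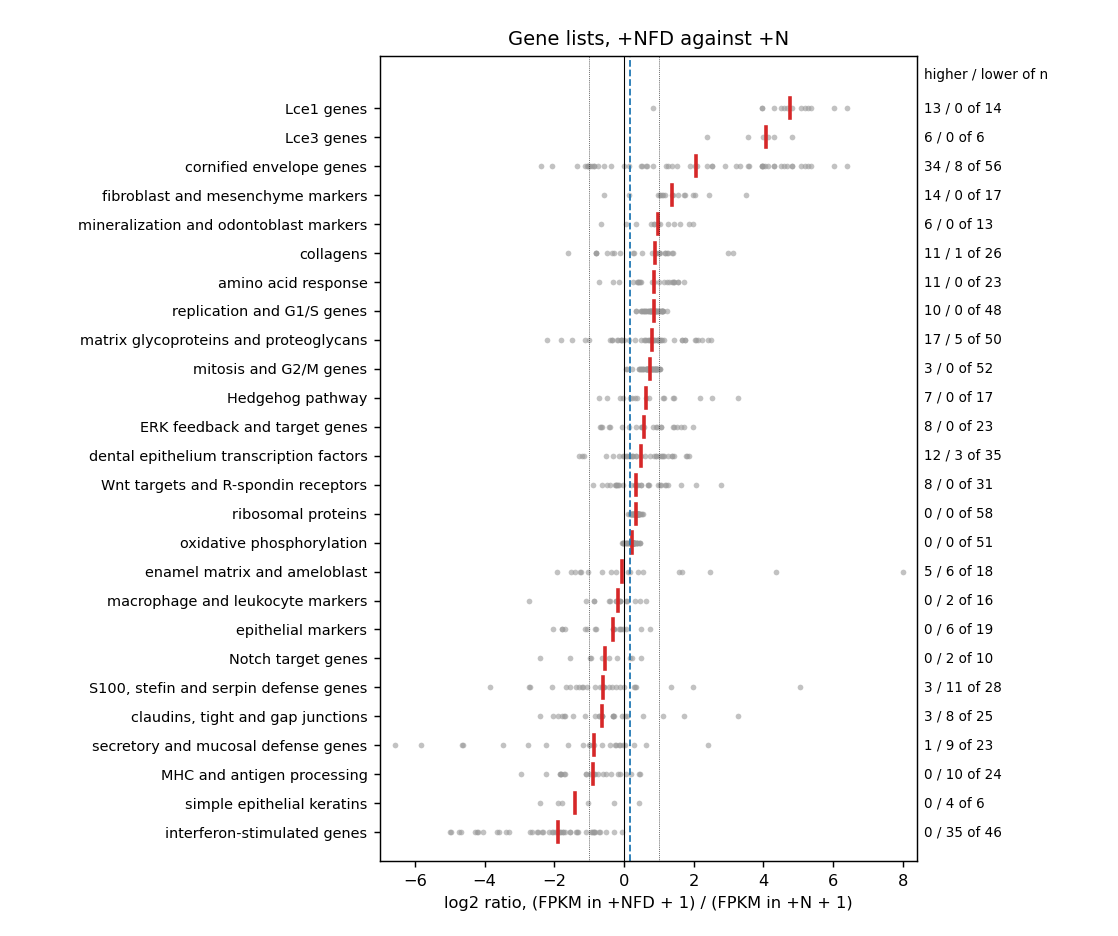
Log2 ratio of +NFD to +N for the members of 26 gene lists that passed the filter (grey points) and their median (red bar), with the number of members at least 2-fold higher and lower at the right. The dashed blue line is the median of all 13358 genes, 0.18, and the dotted lines mark a 2-fold ratio; by their median, Lce1 genes lie farthest to the right and interferon-stimulated genes farthest to the left, and the single point near 8 is Amelx.

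**Figure D4:**
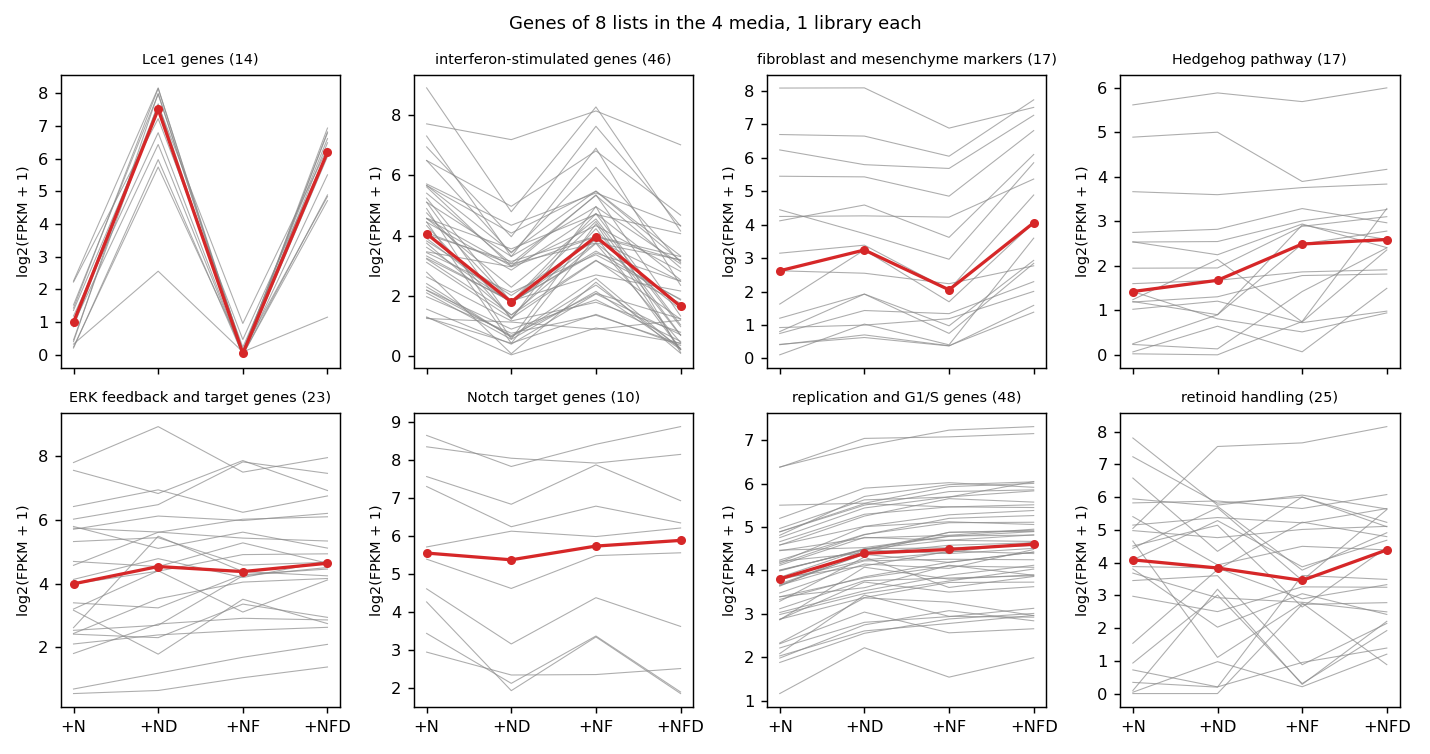
Levels in +N, +ND, +NF and +NFD, as log2(FPKM + 1) with 1 library per medium, for the members of 8 gene lists that passed the filter in the comparison of +NFD with +N (grey lines, 1 per gene) and their median (red). Lines only join values of the same gene; Lce1 genes are high and interferon-stimulated genes low in the 2 libraries with DBZ, whereas most replication genes are lowest in +N.

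Several groups of calls lay next to each other in the genome. Only windows of 1 Mb with at least 5 higher or 5 lower genes were kept, so those given here are dense by that choice. Over all genes, 5.85% were higher and 4.03% lower. Other windows that met the limit include chromosome 4 from 117 Mb and chromosome 6 from 124 Mb, with 6 higher of 22 and 6 of 23 genes. On chromosome 3 of GRCm38, the megabase from 92 Mb held 44 genes that passed, of which 27 were higher and 6 lower, and the next megabase held 9, of which 6 were higher, among them Rptn, Crnn and Flg. Both windows are part of the epidermal differentiation complex. The megabase from 90 Mb on the same chromosome, with the S100 genes, held 28 genes, 1 higher and 8 lower. On chromosome 7, the megabase from 43 Mb with the kallikrein genes held 19 genes, 7 higher and 0 lower. On chromosome 17, the megabase from 35 Mb with the H2-Q genes held 53, of which 4 were higher and 11 lower. The Ifit genes on chromosome 19, from 34 Mb, were among 6 lower of 17 genes, and the Oas genes on chromosome 5, from 120 Mb, among 5 lower of 15. Members of these families are copies of each other, so the counts are not independent.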

How the data were processed

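Total RNA was sequenced from TruSeq libraries. Per the study's methods and the submitters' processing notes, reads were checked with FastQC 0.11.9, trimmed with Trim Galore 0.6.5 and aligned to GRCm38 with TopHat2 2.1.1, and the authors estimated FPKM per gene with Cufflinks. The annotation release and strand setting were not given in the sources used here. The deposited FPKM values of the +N, +ND, +NF and +NFD media were used, and 2 further media were not analysed here. Entries of 1 symbol were summed (123 symbols), a pseudocount of 1 FPKM was added, and symbols with at least 1 FPKM in the higher of +N and +NFD were compared by log2 ratio. With 1 library per medium, calls are ratios of at least 2-fold without a test. The table holds 0 entries of the mitochondrial genome. Fragments were estimated from the smallest steps of low FPKM values, and counting intervals (95%, exact conditional) cover counting error only.

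Named genes were the 20 largest and 20 lowest ratios among protein-coding genes with at least 5 FPKM in the higher library and at least 300 nt, members of 65 gene lists from general knowledge, and the 10 most abundant genes of each library with the 10 largest gains and losses. The comparison and the lists were chosen with earlier results of these data known, and 7 more lists were added after values were seen. Symbols were matched to GENCODE M21 by identifier for 46994 entries, and 25 symbols had been turned into dates. RefSeq promoters (250 bases before to 50 after the start) were matched by symbol for 72.2% of the genes compared, under the 80% set as a minimum, so no motif share is given for all higher or lower genes. Scripts ran in Python 3.11.15 with pandas 2.3.3 and scipy 1.17.1 and were tested on simulated data.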

Additional observations from a re-analysis of the deposited data

How the results depend on the processing

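With a pseudocount of 0.1 FPKM the number of higher genes was 1271 and the median log2 ratio 0.199, and with none, which leaves out genes at 0 in +N or +NFD, they were 1269 and 0.201. A filter at 5 FPKM left 488 higher and 419 lower genes. With all symbols kept the median was 0, and after upper-quartile scaling it was 0.0798, with 652 higher and 623 lower genes. Centring on the median gave 540 higher and 714 lower, and protein-coding genes alone 693 and 473. The number of lower genes was between 419 and 743 under the 8 alternatives. Of 69 lists with at least 3 members that passed, 24 had a median of at least 0.5 in size, and 21 of these kept their sign under the 7 alternatives run on lists. The other 3, hair shaft genes, secretory and mucosal defence genes and taste and neuroendocrine markers, had a median of 0 without a filter, since most of their members are near 0. No paired analysis was possible because each medium has 1 library and no test was run. For the same reason no library could be left out. Genes under 10 fragments in the higher library were 7 of the higher and 5 of the lower genes, so depth limited few of the calls, while the spread between cultures of 1 medium was not measured.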

Other observations

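The lists in this paragraph and the next were set up after values were seen. Retinoids, made from vitamin A, act as morphogens, and the genes for their uptake, synthesis and breakdown differed in both directions, with 7 higher and 9 lower of 25 that passed. Several higher genes serve binding or breakdown. Cyp26a1, which breaks down retinoic acid, was at 10.2 FPKM in +NFD and 0.267 in +N (+ND 0.145, +NF 11.2), a log2 ratio of 3.14. Cyp26c1, an enzyme of the same kind, was listed at 0 in +N and +ND, where 3 fragments correspond to at most 0.0774 FPKM, and was at 5.6 FPKM in +NF and 5.85 in +NFD. Both were found in the libraries with FGF10 and were near 0 without it. Crabp1, which binds retinoic acid in the cell, was at 284 FPKM in +NFD and 32 in +N (+ND 186, +NF 201), and Rbp4, the retinol carrier, was at 26.7 FPKM in +NFD and 1.9 in +N (+ND 12.8, +NF 36.7). Lrat, which stores retinol as esters, was at a log2 ratio of 2.12. The lower genes included Stra6, Aldh1a1, Aldh1a3 and Rbp2, which encodes a binding protein. Stra6, the receptor for retinol uptake, was at 48.8 FPKM in +NFD and 223 in +N (+ND 53, +NF 65.8). Aldh1a1 and Aldh1a3 make retinoic acid. In the order +N, +ND, +NF and +NFD they were at 24.3, 1.15, 5.8 and 0.845 FPKM and 149, 55.3, 63 and 36.5 FPKM. Aldh1a2, of the same function, was higher at 0.0289, 0.966, 0.155 and 1.3 FPKM, a log2 ratio of 1.16. The value of Aldh1a2 in +N rested on about 1.8 fragments, and after centring its log2 ratio was 0.98, under 2-fold. Rarb and Dhrs3 were also lower, at log2 ratios of -1.39 and -1.49.

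Of 18 genes of the Ly6 and Lypd family, small surface proteins, 4 were higher and 6 lower. Besides Ly6d and Ly6c1, Lypd5 was higher at 12.9 FPKM in +NFD and 0.843 in +N (+ND 30.7, +NF 0.339), and Psca was lower at 305 FPKM in +NFD and 1049 in +N (+ND 248, +NF 289). Of 19 genes for the metabolism of arachidonate and phospholipids, 7 were higher and 4 lower. Alox12, a lipoxygenase of platelets and skin, was at 34.4 FPKM in +NFD and 253 in +N (+ND 23.5, +NF 125), a log2 ratio of -2.84, and Plb1, a phospholipase, was at 1.22 FPKM in +NFD and 42.4 in +N (+ND 0.842, +NF 19.4), while Ptgs1 and Ptgs2, the cyclooxygenases, were at log2 ratios of 1.43 and 1.26. Alox12 and Plb1 were thus lower together with Alox15, and the epidermal Alox12b and Aloxe3 were higher. Of 6 genes of the platelet-basic-protein cluster on chromosome 5, 0 were higher and 4 lower, with a median of -1.74.

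Among 19 aquaporins and epithelial channels that passed, 4 were higher and 4 lower. The water channel genes Aqp1 and Aqp3 lay on opposite sides, Aqp1 at 18.7 FPKM in +NFD and 1.93 in +N (+ND 9.31, +NF 2.44) and Aqp3 at 117 FPKM in +NFD and 535 in +N (+ND 333, +NF 101). Kcnq1, a potassium channel, was lower at 29.3, 0.862, 46.3 and 5.48 FPKM, and Kcnn4, another one, was higher at 7.7, 13.8, 17.8 and 24.9 FPKM in the order +N, +ND, +NF and +NFD. Of 45 axon guidance genes, 3 were higher and 3 lower, or 6.67% each way, close to the 5.85% and 4.03% of all genes. Among them, Unc5b was at a log2 ratio of 1.81, Slit3 at 1.79 and Ntn4 at -2.09.

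Of 30 small nucleolar RNAs that passed, 14 were higher and 11 lower, and of 6 small nuclear RNAs 5 were higher and 1 lower, beside 693 and 473 of 12157 protein-coding genes. These RNAs are short, and 1 fragment is worth more FPKM in them than in a messenger RNA.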
